A study of Mus musculus with 6 samples.

Results

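The activator protein 1 (AP-1) transcription factor subunits were examined in a mouse mammary carcinoma line, E0771. The group consists of 10 listed genes, Fos, Fosb, Fosl1, Fosl2, Jun, Junb, Jund, Atf3, Maff and Batf3, and all 10 were found by symbol among the 55571 entries of the count table. RNA was sequenced from 3 libraries of cells carrying a vector control and 3 libraries of cells expressing wild-type Malt1 (Malt1-WT), all in the basal condition. The labels name no other allele or agent in either group, and do not say how Malt1 was introduced or whether each line is a pool or 1 clone. The question is which AP-1 transcripts are more or less abundant when Malt1 is introduced.

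AP-1 is a dimer of proteins with a basic region and a leucine zipper. Jun proteins pair with one another or with Fos proteins, whereas Fos proteins need a partner such as Jun to bind DNA well, and Atf3, small Maf and Batf proteins join related dimers. Fos, Fosb, Jun and Junb are classical early-response genes that MAP kinases switch on within minutes, and their messages are short-lived. Fosl1 and Fosl2 encode Fra-1 and Fra-2, Fos relatives that lack a strong activation domain and are common in carcinoma cells. MALT1, a paracaspase, relays signals through Bcl10 and CARD proteins to NF-kB and to the kinase JNK.

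Total counts were 17601656 to 20543778 per library, and mitochondrially encoded genes held 2.07% to 2.32% of them. Malt1 itself was counted 517, 633 and 611 times in the vector control and 5526, 6176 and 5087 times in Malt1-WT, which matches the labels. Among 8 epithelial markers only Krt8 (68.6 ± 2.31 CPM in the vector control, 59.7 ± 1.83 in Malt1-WT, SD, n = 3) and Epcam (6.31 ± 0.319 and 6.23 ± 1.01 CPM) passed the filter on low counts. The other 6, Krt18 among them, had at most 9 counts in any library. The summed level of 10 leukocyte markers was 22.2 to 26.1 CPM in the vector control and 28.4 to 32.4 CPM in Malt1-WT. Of 5 tested, 2 were called higher and 2 lower. Beside this and the next list, 31% of all tested genes were called higher and 30.2% lower. The macrophage markers Cd68 (264 counts over the vector control and 787 over Malt1-WT) and Adgre1 (3 and 81) were higher, and Lyz2 (221 and 41) and Fcer1g (870 and 671) were lower. Adgre1 had at most 2 counts in a vector control library and passed the filter through the Malt1-WT libraries alone. The defining leukocyte genes Tyrobp and Ptprc had 0 and 7 counts over all 6 libraries. Of 7 fibroblast and vessel markers the sum was 326 to 347 CPM and 356 to 383 CPM, most of it from Pdgfra, which was lower (log2 fold change -0.48), and Pdgfrb, which was higher (0.57). The vessel marker Pecam1 was higher too (1.02), and the other 3 tested were not called. The part of these markers in the AP-1 values was not tested. In bulk RNA, a change in the number of cells that express a gene and a change in RNA per cell cannot be told apart.

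Levels are CPM (a gene's count as a share of the library, scaled to a fixed total) with library sizes adjusted by the trimmed mean of M values (TMM). A call needs an adjusted p under 0.05 in edgeR's quasi-likelihood test over all 13594 tested genes. Of the 10 AP-1 genes, 7 passed the filter on low counts, and all 7 were called higher in Malt1-WT. Among all tested genes 61.2% were called, 31% as higher and 30.2% as lower. The 3 Malt1-WT libraries lay above the 3 vector control libraries for each of these 7 genes, which was the case for 32.4% of all tested genes. Jund, Atf3 and Batf3 had too few counts to be tested and are described separately.

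**Figure D1:**
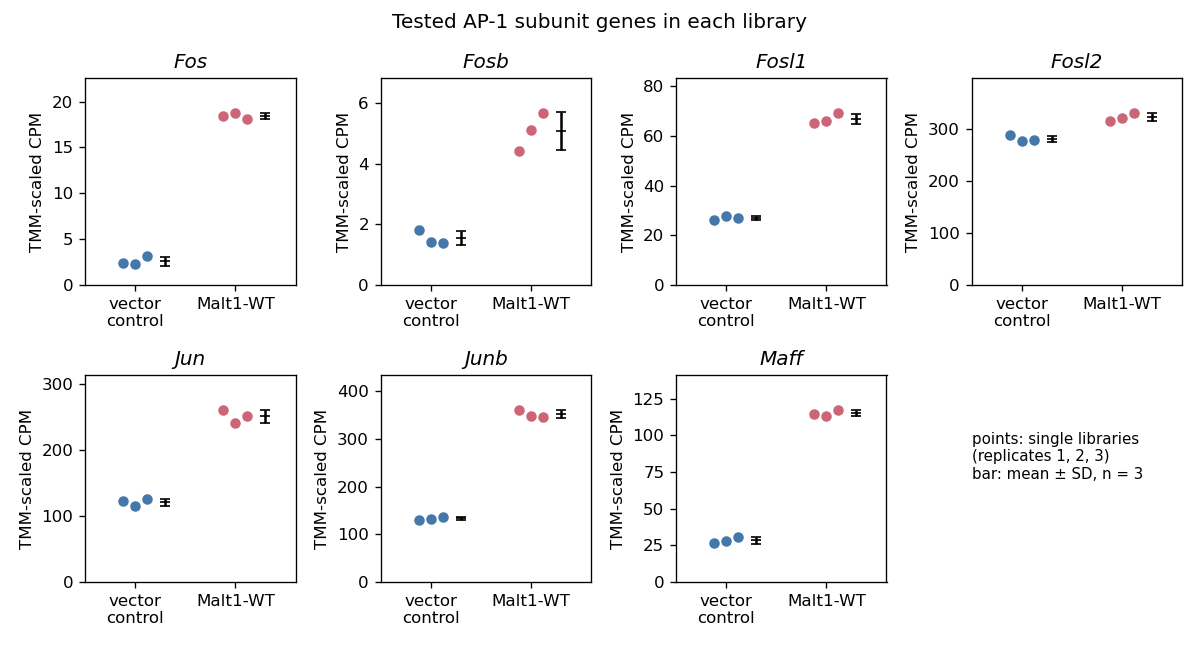
TMM-scaled CPM (vertical axes, linear from 0) of the 7 tested AP-1 genes in each of the 3 vector control (blue) and 3 Malt1-WT (red) libraries, with the mean ± SD of each group in black. For each gene the 3 Malt1-WT points lie above the 3 vector control points, with a wide gap for Fos (2.26 to 3.18 against 18.1 to 18.8) and a narrow one for Fosl2 (277 to 287 against 315 to 330).

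Fos encodes the founding member of the Fos family. Its levels were 2.43, 2.26 and 3.18 CPM in vector control replicates 1 to 3 and 18.5, 18.8 and 18.1 CPM in Malt1-WT replicates 1 to 3. Behind them lay 44, 46 and 64 reads counted in vector control libraries and 330, 376 and 309 in Malt1-WT libraries. The groups were well apart, and the lowest Malt1-WT library was far above the highest vector library. Fos rose 7.0-fold (edgeR adjusted p = 6.86e-25, log2 fold change 2.81, SE 0.13). No other AP-1 gene tested had a larger fold change, and it took rank 204 of 13594 tested genes. The gene lies on chromosome 12 (85473890 to 85477273, plus strand, GRCm38).

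Fosb, whose product is best known from long-lasting responses in neurons, was the least abundant gene tested here. It stood at 1.82, 1.42 and 1.39 CPM in the vector control and at 4.42, 5.09 and 5.67 CPM in Malt1-WT. The groups did not overlap, but with 28 to 33 counts per vector library its fold change is the least precise of the 7. Fosb (chromosome 7, 19302696 to 19310051, minus strand) rose 3.28-fold (edgeR adjusted p = 4.5e-10, log2 fold change 1.71, SE 0.21).

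Both Fra genes rose, with unequal fold changes. Fosl1 went from 26.0, 27.7 and 27.2 CPM to 65.3, 66.0 and 69.3 CPM, a 2.48-fold rise (log2 fold change 1.31, SE 0.057, edgeR adjusted p = 4.65e-26). Fosl2, the AP-1 gene with the most counts in the vector control, had 287, 277 and 279 CPM there and 315, 321 and 330 CPM in Malt1-WT. Its rise was 1.15-fold (edgeR adjusted p = 2.24e-07, log2 fold change 0.20, SE 0.031), which made it the smallest of the 7 and at percentile 67.2 of all tested genes. The difference between the Fosl1 and Fosl2 fold changes was not tested. Fosl1 (chromosome 19, 5447547 to 5455946, plus strand) shares 57.2% of its exon bases with Ccdc85b on the opposite strand. Ccdc85b was at -0.09 (log2 fold change, SE 0.064, edgeR adjusted p = 0.233), with no call. Fosl2 lies on chromosome 5 (32135801 to 32157842, plus strand).

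Jun and Junb both rose. Jun, whose product is the main target of JNK, went from 123, 115 and 125 CPM to 261, 241 and 252 CPM. That is a 2.07-fold rise (log2 fold change 1.05, SE 0.037, edgeR adjusted p = 2.85e-30). Junb, an AP-1 subunit that can oppose Jun, went from 131, 133 and 137 CPM to 361, 348 and 347 CPM, a 2.63-fold rise (log2 fold change 1.40, SE 0.033, edgeR adjusted p = 1.12e-37). For both genes the libraries of a group lay close together and the groups were far apart.

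Jun (chromosome 4, 95049034 to 95052222, minus strand) shares 7.28% of its exon bases with the antisense transcript gene Junos. Junos had 39, 40 and 28 counts in vector control libraries, 62, 66 and 66 in Malt1-WT libraries, and was called higher (edgeR adjusted p = 2.43e-04, log2 fold change 0.95, SE 0.22). The strand setting of the counting is not known, and without it reads from a gene and its partner on the other strand cannot be told apart where they overlap. This holds for Jun and Junos, for Junb and Prdx2, and for Fosl1 and Ccdc85b, which share the most bases. Junb (chromosome 8, 84974484 to 84978718, minus strand) shares 7.52% of its exon bases with Prdx2, which had 12503 counts over the vector control and 9082 over Malt1-WT and was lower (log2 fold change -0.37).

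Maff encodes a small Maf protein, which has no activation domain of its own and pairs with other leucine zipper proteins. Its levels were 26.6, 27.8 and 30.9 CPM in the vector control and 115, 113 and 117 CPM in Malt1-WT. This 4.04-fold rise (log2 fold change 2.01, SE 0.051, edgeR adjusted p = 2.96e-36) was second only to Fos among the 7 genes and ranked 395 of 13594. The gene lies on chromosome 15 (79346621 to 79359076, plus strand).

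**Figure D2:**
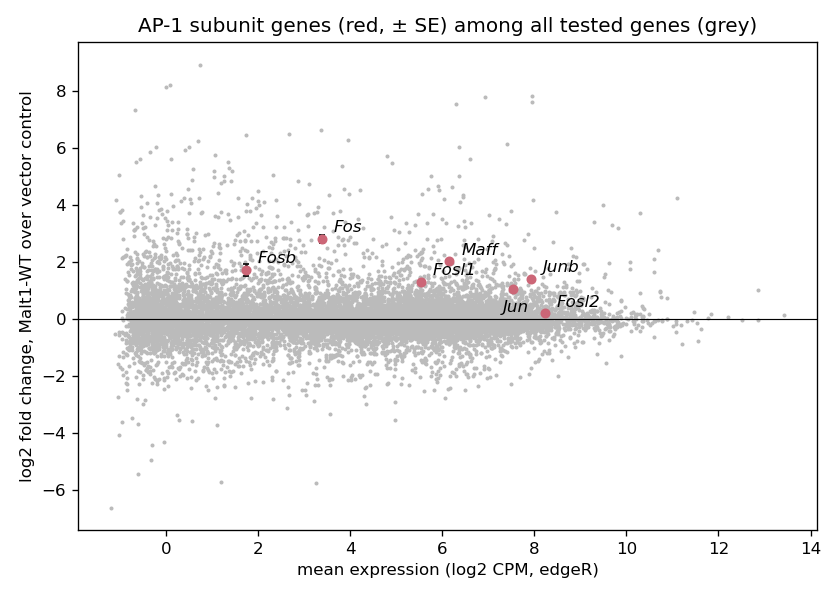
Log2 fold change of Malt1-WT over vector control (vertical axis) against mean expression in log2 CPM (horizontal axis) for all 13594 tested genes in grey, with the 7 tested AP-1 genes in red (bars: SE). Fos at 2.81 and Maff at 2.01 lie in the upper margin of the cloud, while Fosl2 at 0.20 lies inside it.

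The median log2 fold change of the 7 tested AP-1 genes was 1.40, beside -0.00286 over all tested genes. Of the 7, 6 (all but Fosl2) were called with a fold change of at least 2, as were 8.35% of all tested genes. A test against a 2-fold change, added after the data were seen, is stricter. There 5 of the 7 passed as higher, namely Fos, Fosb, Fosl1, Junb and Maff, where 7.92% of all tested genes passed in either direction and 5.4% as higher. In that edgeR test Jun had an adjusted p of 0.268 and Fosl2 of 1. The authors' deposited table gives an adjusted p under 0.05 to 1.13% of its 55571 entries. Of these entries 28089 had no count in any library, so this share is not over the 13594 tested genes. In the authors' deposited table, the adjusted p was 7.72e-04 for Maff, 0.00135 for Fos, 0.00272 for Junb and 0.0226 for Fosl1. It was 0.169 for Fosb and 1 for Jun in the authors' deposited table, with log2 fold changes there of 1.69 and 1.04. The t statistic for Jun was 0.786 there, and for Junb, with a log2 fold change of 1.38, it was 13.8. For Fosl2 it is listed as 0 beside a log2 fold change of 0.19, which a test against no change would not give. That t was also 0 for Jund and Batf3, and above 0 for each listed gene with a change above 2-fold there. This is the pattern of a test against a 2-fold change, although the file headers do not name the authors' test. Its adjusted p-values are therefore not comparable with the edgeR calls, which are against no change. In the edgeR test against a 2-fold change Fosb had an adjusted p of 0.00214.

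Counts between genes can be compared only per length, so CPM was divided by the union of a gene's annotated exons in kb. On this scale the vector control held 58.0 ± 1.25 (SD, n = 3) for Junb, 38.0 ± 1.68 for Jun, 29.0 ± 0.564 for Fosl2, 13.3 ± 0.426 for Fosl1, 11.0 ± 0.848 for Maff, 1.12 ± 0.209 for Fos and 0.248 ± 0.0383 for Fosb. No neighbours in that order overlapped between libraries. In Malt1-WT the level per kb was 153 ± 3.55 for Junb, 78.8 ± 3.18 for Jun, 44.4 ± 0.773 for Maff, 33.3 ± 0.82 for Fosl2, 32.9 ± 1.04 for Fosl1, 7.84 ± 0.149 for Fos and 0.811 ± 0.101 for Fosb. Maff thus stood below both Fra genes in the vector control and above both in Malt1-WT. Fosl2 and Fosl1 overlapped in Malt1-WT (32.5 to 34.1 and 32.1 to 34.1 CPM per kb).

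The gene length chosen bears on this order. Divided by the longest annotated transcript instead, Fosl2 kept a higher level than Fosl1 in Malt1-WT (49.3 ± 1.21 against 35.9 ± 1.13 CPM per kb), and Fosl1 and Maff overlapped in the vector control (14.5 ± 0.465 and 14.5 ± 1.12). Fold changes do not depend on the length.

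The make-up of the Fos family differed between the groups. Fosl2 made up 66.5% ± 1.09 of the summed Fos-family level per kb in the vector control and 44.5% ± 0.0746 in Malt1-WT (SD, n = 3). Fosl1 went from 30.4% ± 1.1 to 44.0% ± 0.375 and Fos from 2.56% ± 0.471 to 10.5% ± 0.415, while Fosb stayed near 1% or below (0.567% ± 0.0864 and 1.08% ± 0.109). The family sum was 43.4 to 43.8 CPM per kb in the vector libraries and 73.2 to 76.8 in the Malt1-WT libraries. For the Jun family the sum was 93.9 to 98.7 and 227 to 239 CPM per kb, and Junb made up 60.4% ± 1.02 and 66.0% ± 0.574 of it. The Fos-family sum per Jun-family sum was 0.458, 0.462 and 0.443 for vector control libraries and 0.306, 0.328 and 0.335 for Malt1-WT libraries. In these transcripts Jun genes outweighed Fos genes in every library, and by more in Malt1-WT. Jund enters the Jun-family sum at next to 0 counts, and its transcript may be missing from the table without being missing from the cells. The Jun-family sum, the Junb share and the ratio are therefore those of Jun and Junb alone, and a Jund level that was not counted would change them. Fosl1 shares 57.2% of its exon bases with Ccdc85b, and the strand setting of the counting is not known. Its level per kb, its order against Fosl2 and Maff and the Fos-family shares, sum and ratio may be off for this reason. These sums and shares are descriptions, with no test.

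**Figure D3:**
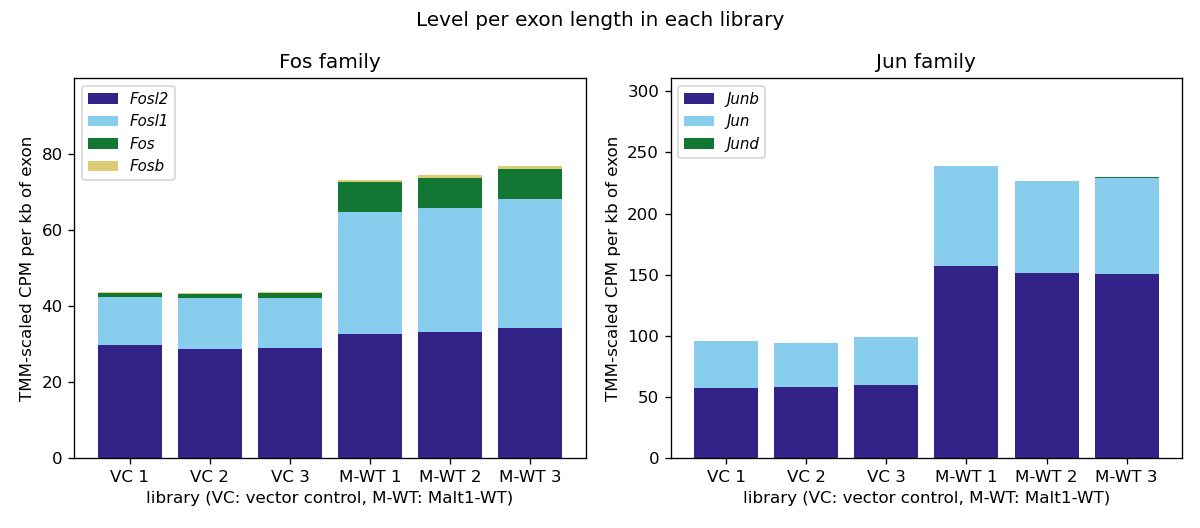
TMM-scaled CPM per kb of exon (vertical axes, stacked from 0) of the Fos-family genes (left) and Jun-family genes (right) in each library, vector control (VC) and Malt1-WT (M-WT). Fosl2 (dark blue, left) is nearly level across libraries at 28.6 to 34.1, and the taller Malt1-WT bars come mostly from Fosl1 and Fos on the left and from Junb and Jun on the right.

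Jund, Atf3 and Batf3 were next to absent from the counts. Jund, which most cells express steadily, had 1, 0 and 1 counts in vector control libraries, and 0, 1 and 1 in Malt1-WT libraries. Atf3, a stress-induced gene, had 0 counts in all 3 vector libraries, which allows up to 3 counts, or 0.147 to 0.166 CPM, in each, and 4, 0 and 3 counts in Malt1-WT. Batf3, known for its role in dendritic cells, had 5, 0 and 2 counts in the vector control and 1 in each Malt1-WT library. When the filter was dropped and these genes were tested by edgeR, the adjusted p was 0.0743 for Atf3, 0.583 for Batf3 and 0.988 for Jund. No difference was detectable at these counts.

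A count near 0 in this table does not show that a transcript was missing. Among 79 cytosolic ribosomal protein genes, which every cell uses, 3 (Rpl7, Rpl31 and Rpl37a, chosen after their values were seen) had at most 1 count in any library, while the median gene of that list averaged 9539 counts per library. Jund (chromosome 8, 70698949 to 70700616, plus strand) shares 52.6% of its exon bases with the antisense gene Gm11175, which had 0 counts. Its transcript holds 67.1% G and C, above 99.9% of the tested genes. Of 5 protein-coding genes within 50 kb of Jund, Lsm4 and Pgpep1 were counted 644 to 1256 times per library, and Iqcn, Gm3336 and Pde4c at most 1 time. Atf3 (191170296 to 191218039, minus strand) and Batf3 (191097847 to 191108945, plus strand) are neighbours on chromosome 1, 61350 bases apart. The cause of the low counts was not tested.

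The bases before 5 start sites of Fos, Jun, Junb and Maff are shown because these genes rose and a searched motif lies close to the start. The promoter table of RefSeq (GRCm38.p6) held 9 of the 10 genes and gave 3 starts for Maff. Fosl1, which also rose, was not in it and was not searched. The 250 bases before each start were searched on both strands. The motifs were TGANTCA (AP-1 site), TGACNTCA (CRE-like site), TGACGT (CRE core, which overlaps the former), the TATA core TATAA, the CCAAT box with its own letters, and the NF-kB and CArG motifs by name. The last 80 bases before each start read 5′ to 3′ toward the gene, with matches in capitals. The same windows of Fosb, Fosl2 and the first Maff start, genes that also rose, held no match and are not printed.
Fos, chr12:85473810-85473889, plus strand: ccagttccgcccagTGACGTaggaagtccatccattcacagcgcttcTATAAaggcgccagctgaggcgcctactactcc
Jun, chr4:95052223-95052302, minus strand: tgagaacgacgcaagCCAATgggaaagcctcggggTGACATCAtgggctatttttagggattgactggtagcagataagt
Maff, start at 79347520, chr15:79347440-79347519, plus strand: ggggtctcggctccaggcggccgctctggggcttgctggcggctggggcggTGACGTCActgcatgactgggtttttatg
Maff, start at 79348402, chr15:79348322-79348401, plus strand: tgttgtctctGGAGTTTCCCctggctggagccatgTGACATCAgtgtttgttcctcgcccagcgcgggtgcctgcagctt
Junb, chr8:84978749-84978828, minus strand: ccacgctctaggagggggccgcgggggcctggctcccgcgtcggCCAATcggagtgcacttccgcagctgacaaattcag

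The CRE-like site TGACNTCA began at position -45 from the Jun start, as TGACATCA, and at -29 and -45 from the later Maff starts. It occurs in 7.49% of the 32851 promoters of the table. Fos had the CRE core TGACGT at -66, as 6.47% of promoters do somewhere in the window, followed by a TATAA core. Atf3 carried the CRE core on the other strand, at -8. No 250-base window of the 9 genes held TGANTCA, found in 6.75% of promoters, or a CArG box, found in 1.47%. Bases further upstream were not searched, so a site there would not be seen. The starts used for Jund (70697739), Atf3 (191183333), Fosl2 (32136472) and Batf3 (191098414) lie away from the 5′ ends of the gene spans given above. Their windows may not lie before the start used in these cells. The NF-kB motif matched in the windows of Fos, Fosb, Fosl2 and the last Maff start, beside 3.9% of all promoters, at -214, -188, -182 and -70. A match is only a run of letters, and binding was not measured.

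Many early-response messages carry AU-rich elements, short runs in the 3′ untranslated region through which tristetraprolin and its relatives speed decay. The nonamer TTATTTATT was searched in the longest annotated 3′ untranslated region of each gene, and 8.13% of 11574 tested genes with such a region held it. Among the AP-1 genes it was found in Fos (1 copy in 815 bases), Fosl2 (1 copy in 4653 bases) and Maff (2 copies in 1221 bases). These sites are shown because Fos and Maff had the largest fold changes and Fosl2 the smallest, and the nonamer is in capitals.
Fos, chr12:85477103-85477132, plus strand: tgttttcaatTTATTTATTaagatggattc
Maff, chr15:79358778-79358807, plus strand: ttccacactcTTATTTATTgcacgaatcta
Maff, chr15:79358977-79359006, plus strand: ctcccagagtTTATTTATTttctgacttca
Fosl2, chr5:32156871-32156900, plus strand: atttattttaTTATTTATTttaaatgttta

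The shorter core ATTTA occurred 4 times in Fos, Jun and Maff, 8 times in Fosl2, 3 times in Atf3, 2 times in Junb, once each in Fosb, Fosl1 and Jund, and 0 times in Batf3. Among all tested genes with the nonamer 49.9% were called higher, beside 33.5% of those with an annotated 3′ untranslated region. The 2 sets were not matched for the length or base content of this region. A link between the nonamer and the calls was not tested. Of 7 tested genes for AU-rich element binding proteins, 3 were called higher and 3 lower (median log2 fold change -0.04). The shares over all tested genes were 31% and 30.2%. The tristetraprolin gene Zfp36 rose by 3.67 on the log2 scale (SE 0.066, from 8.14 ± 0.577 to 104 ± 3.12 CPM, SD, n = 3, edgeR adjusted p = 4.87e-43) and its relative Zfp36l1 by 1.02, while Zfp36l2, the third relative, fell by 0.44.

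Other leucine zipper genes that join AP-1 dimers also rose for the most part. Of 11 listed, 7 were tested, with 6 called higher and 1 lower (median log2 fold change 0.80), beside 31% and 30.2% of all tested genes. Batf2, an interferon-responsive relative of Batf3, rose most, from 2.87, 2.85 and 2.24 CPM to 22.1, 20.2 and 25.0 CPM (log2 fold change 3.08, SE 0.13, edgeR adjusted p = 3.42e-27). Mafk, a small Maf like Maff, and Jdp2, a repressor that pairs with Jun, were each 0.87 higher on the log2 scale. Atf2, a JNK and p38 substrate that pairs with Jun, was the single gene called lower (-0.15, SE 0.049, edgeR adjusted p = 0.00854). Its adjusted p was 0.0712 without vector control replicate 3 and 0.085 without Malt1-WT replicate 3.

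Of 23 tested genes of the MAP kinase cascades, which act upstream of AP-1, 11 were called higher and 6 lower (median log2 fold change 0.03). Among all tested genes 31% were called higher and 30.2% lower. With library sizes left unadjusted, 8 genes of the list were called higher and 7 lower. The kinase genes Map2k1 (1.03, SE 0.034), which encodes MEK1, Map3k8 (0.87, SE 0.089), also known as Tpl2, and Map2k6 (0.86, SE 0.17), an activator of p38, had the largest changes, with edgeR adjusted p of at most 2.77e-05. The JNK1 gene Mapk8 was 0.80 higher, while the JNK2 gene Mapk9 was not called (-0.03, SE 0.039, edgeR adjusted p = 0.525). The ERK1 gene Mapk3 was 0.64 lower (fold change -0.64 on the log2 scale). Mapk8, Mapk9 and Mapk3 were chosen after their values were seen. Kinase activity was not measured.

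Among 12 tested genes for factors that bind the Fos and Jun promoters, 5 were called higher and 3 lower (median 0.14). For this list and the regulators of Jun proteins below, the shares over all tested genes are again 31% and 30.2%. Crem, a CRE-binding factor, rose from 7.34, 7.27 and 6.86 CPM to 20.9, 20.8 and 20.995 CPM (log2 fold change 1.55, SE 0.099, edgeR adjusted p = 2.09e-19). Mef2a (0.56) and the ternary complex factor gene Elk3 (0.31) were higher too. Srf, which encodes the CArG-binding serum response factor, was at -0.19 and its coactivator genes Mrtfa and Mrtfb at -0.16 and -0.25, all called lower, with edgeR adjusted p of at most 0.013. The Mrtfa call was lost when vector control replicate 1 was left out (edgeR adjusted p = 0.106), and likewise without replicate 1 (0.0517) or replicate 3 (0.0757) of Malt1-WT. Of 6 tested regulators of Jun proteins, 1 was called higher, the ubiquitin ligase gene Itch (0.18), and 2 lower, Trib1 (-0.58) and Det1 (-0.26). Det1 had an edgeR adjusted p of 0.00929, and of 0.068 without Malt1-WT replicate 3.

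**Figure D4:**
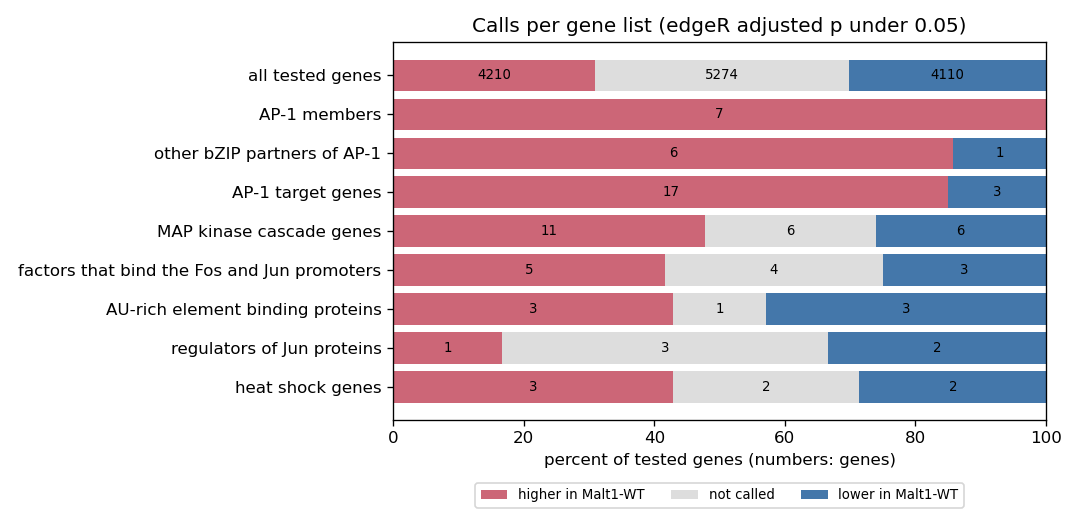
Percent of tested genes called higher (red), not called (grey) or called lower (blue) in Malt1-WT at an edgeR adjusted p under 0.05, for the AP-1 genes, 7 other gene lists and all 13594 tested genes, with the number of genes printed in each bar. The 7 AP-1 genes are all red, 6 of 7 other leucine zipper genes and 17 of 20 target genes are red, and the other 5 lists shown hold all 3 colours.

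Genes known as AP-1 targets were mostly higher, 17 of 20 tested, beside 31% of all tested genes. This list, like the others, was chosen with earlier results of these data known, so its count is only a description. Il11, 1 of the 17, had 7 to 16 counts per vector control library and passed the filter through the Malt1-WT libraries. Of these targets 3 were lower, beside 30.2% of all tested genes, and their median log2 fold change was 2.04. Many of them also answer to NF-kB or other factors, so their levels are not a readout of AP-1 alone. The cytokine gene Lif (4.12, SE 0.057, from 9.22 ± 0.564 to 160.5 ± 0.939 CPM, SD, n = 3) and the matrix metalloproteinase gene Mmp10 (3.80, SE 0.12, from 1.87 ± 0.204 to 26.2 ± 0.34 CPM) were among those with the largest changes, each with an edgeR adjusted p of at most 1.63e-31. The other metalloproteinase genes Mmp13 (3.42), Mmp9 (2.42) and Mmp3 (1.80), and the urokinase and urokinase receptor genes Plau (3.38) and Plaur (2.09), also rose. They were named after their values were seen. Those that fell were the cyclin D1 gene Ccnd1 (-0.85), the DNA methyltransferase gene Dnmt1 (-0.82) and the osteopontin gene Spp1 (-0.76). Ptgs2 and Edn1, at 0 and 1 count over all libraries, were not tested.

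**Figure D5:**
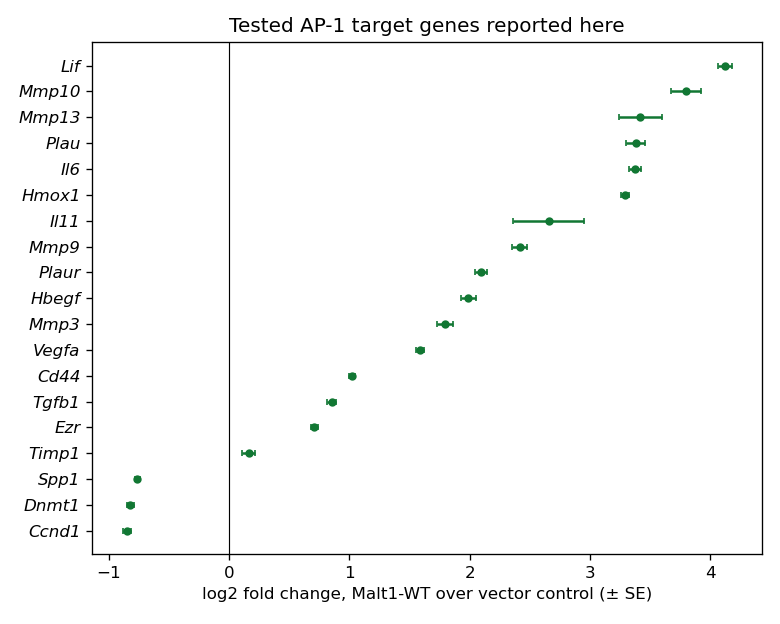
Log2 fold change of Malt1-WT over vector control (horizontal axis, bars: SE) for the tested AP-1 target genes reported here, ordered by size. Of those shown, all but Spp1, Dnmt1 and Ccnd1 lie above 0, from 0.16 for Timp1 to 4.12 for Lif.

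AP-1 genes can also respond to the handling of cells, so heat shock genes are given beside them. Of 7 tested, 3 were called higher and 2 lower (median log2 fold change 0.04), or 2 and 3 with library sizes left unadjusted. Over all tested genes, with adjusted sizes, 31% were called higher and 30.2% lower. The summed level of the heat shock genes was 5428 to 5527 CPM in the vector control and 4739 to 4774 CPM in Malt1-WT. Most of this sum was Hspa8 (3569.3 ± 42.2 and 2768.5 ± 16 CPM, SD, n = 3), so the sum mainly follows that gene. Hspa1b, whose reads can be split with its near-identical copy Hspa1a, was 0.73 and Dnajb1 0.25 higher on the log2 scale, whereas Hspa8 was at -0.37 and Bag3 at -0.21. Their part in the AP-1 values was not tested.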

How the data were processed

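The labels place 3 E0771 libraries in the vector control and 3 in Malt1-WT, and groups and replicate numbers come from the sample titles. The authors deposited raw counts per gene symbol, 1 column per library, per the file headers. They also deposited a log2 fold change, a score (the t statistic), a p-value and an adjusted p-value of their own comparison, per the file headers. The submitters' processing notes list STAR 2.7.3a, Trim Galore 0.6.0, GRCm38.p6 and featureCounts 1.6.3. For the annotation and the strand setting, the sources used here give nothing.

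The counts were fitted in R 4.3.3 by edgeR 4.0.16 (filterByExpr, minimum count 10, TMM, robust quasi-likelihood fit without a block, Benjamini-Hochberg adjustment over all 13594 tested genes, called under 0.05). The standard error is the log2 fold change divided by the root of the F statistic. The fit was tested on simulated data with known changes. Positions and lengths come from GENCODE M21 (GRCm38), which may differ from the authors' annotation. DESeq2 1.42.0 was an alternative.

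The members and lists were chosen with earlier results of these data known. Named from each list are up to 3 called genes with the largest change and mean log2 CPM not under 1, and those called against most of the list where 3 or fewer; other names were chosen after their values were seen. A gene that the rule would name is counted in its list and not reported here. Nothing says that libraries came from separate cultures, so p-values reflect the spread of these 6 libraries, possibly technical. Within groups, no pair of libraries was as alike as counting noise alone would make them (chi-square per degree of freedom 2.19 to 3.01), and each counts as 1 replicate.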

Additional observations from a re-analysis of the deposited data

How the results depend on the processing

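The 7 tested AP-1 genes kept their direction and their call under 14 other ways of fitting: RLE, upper quartile or no scaling factors, DESeq2, no filter, a filter of 1 CPM in all libraries, a non-robust fit, the replicate block, and leaving out each library. Their log2 fold changes ranged from 2.7 to 2.97 for Fos, 1.62 to 1.83 for Fosb, 1.23 to 1.33 for Fosl1, 0.121 to 0.208 for Fosl2, 0.975 to 1.07 for Jun, 1.32 to 1.41 for Junb and 1.94 to 2.08 for Maff, and the highest adjusted p was 5.92e-04, for Fosl2. Samples with the same replicate number did not deviate together (correlations -0.0261, -0.0207 and 0.0174 across genes), so no pairing by number was visible. Such values cannot exclude pairs that share only a small effect. With the replicate block edgeR called 8168 genes, against 8320 without it, and all 7 AP-1 genes. Tested against a 2-fold change, an alternative added after the data were seen, 1077 genes passed. With the longest transcript as the length, the Fos-family sum was 59.1 CPM per kb in the vector control and 95.2 in Malt1-WT, the Jun-family sum 112 and 273, their ratio 0.528 and 0.349, the Fosl2 share 72.7% and 51.7%, and the Junb share 66% and 71.2%. These moved by more than 1 SD, with the same direction between groups. The sums rose since most lengths are shorter, and the shares and ratio moved since the lengths shrink unequally. Fosl2 went from 9680 to 6537 bases and Fosl1 from 2033 to 1864, while Jun stayed at 3189. Leaving out single libraries, the other leucine zipper genes called lower numbered 0 to 1, and the regulators of Jun proteins called lower 1 to 3. With library size only, 41.3% of calls were higher, against 50.6%, and Ccdc85b was called lower (-0.165, adjusted p = 0.0224). Low counts limit Fosb and leave Jund, Atf3 and Batf3 untested.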
